A study of Mus musculus with 8 samples.

Results

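The genes described here are those of the fibril-forming collagens I, III and V: Col1a1 and Col1a2, the chains of type I collagen, Col3a1, the chain of type III, and Col5a1, Col5a2 and Col5a3, the chains of type V. The skin came from the back of 10-week-old females of the hairless mouse strain Hos:HR-1. All probe sets (groups of short probes against one transcript) that the platform annotation pairs with exactly 1 of these 6 symbols were taken, which gave 14 of the 45037 probe sets and 6 of the 18193 genes of the array. The brightest probe set of a gene, by its mean over the 8 arrays, is called its main probe set.

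The collagen group was given a purified rodent diet, AIN-93G, with 2.0 g of fish scale collagen hydrolysate added per 100 g for 1 week, and the control group the same diet without it. Collagen hydrolysate is collagen cut into short peptides. Each diet has 4 arrays, which the labels call biological replicates, from a study of 16 mice (8 per diet, 4 per cage). The labels do not tie the arrays to mice or cages, so cage and diet cannot be told apart.

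Fibril-forming collagens give skin its tensile strength. Their chains are made by dermal fibroblasts, hydroxylated and wound into triple helices in the endoplasmic reticulum, secreted as procollagens, trimmed by proteases outside the cell and crosslinked by oxidases of the lysyl oxidase family. Type I collagen joins α1 and α2 chains, type III is a homotrimer that forms mixed fibrils with type I, and type V sits inside type I fibrils and controls their diameter.

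The deposited log2 values ran from 6.5601 to 14.4637, and their spread between arrays was very small, with 87.2% of all probe sets having a range under 0.0001 over the 8 arrays. The sources used here do not say how this scale was made, and no fold changes were computed. Each difference stands in the units deposited with the moderated standard error (SE) of limma, a linear model fitted over all probe sets or genes, and as multiples of the within-diet SD. With 4 arrays per diet, precision is limited. The tissue label was checked against marker genes. In the top 10% of probe sets by mean value lay 11 of 12 epidermal keratinocyte markers, 11 of 14 fibroblast markers and 13 of 15 skeletal muscle markers. The same held for 5 of 8 adipocyte, 5 of 8 smooth muscle and pericyte, 6 of 10 macrophage and dendritic cell, 3 of 10 hair follicle keratinocyte and 0 of 10 endothelial markers. The arrays measure whole skin, in which fewer cells of a type and less RNA per cell cannot be told apart.

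By the level of the main probe set the order was Col3a1, Col1a2, Col5a2, Col1a1, Col5a1 and Col5a3, from percentile 99.9 of all probe sets for Col3a1 down to 78.4 for Col5a3. Col3a1 had a level of 14.214701 ± 3.33e-06 and Col1a2 one of 14.128780 ± 1.22e-05 (mean and SD over 8 arrays), both at percentile 99.9. Col5a2 followed with 12.7091 ± 1.01e-04 (percentile 98.6), then Col1a1 with 11.1851 ± 0.00279 (93.1), Col5a1 with 11.1044 ± 9.17e-04 (92.6) and Col5a3 with 9.6755 ± 3.93e-04. This order held in each of the 8 arrays, and no neighbours in it came within their spread: the smallest gaps were 0.0759 between the lowest Col1a1 and the highest Col5a1 value and 0.0859 between Col3a1 and Col1a2. On this scale 99.4% of all probe sets had a range under 0.01. Almost any probe sets this far apart would keep their order in each array, so its constancy adds no support. A probe set's value also carries how well its probes hybridise, so the order is one of signals and not of mRNA amounts. Within Col1a2 alone the 3 probe sets lay at 14.13, 13.09 and 9.74.

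The 6 genes varied more between arrays than most probe sets of like brightness. The range of the main Col1a1 probe set over the 8 arrays was 0.00733, above that of 98.7% of the 542 probe sets within 0.1 of its level, whose median range was 2.48e-05. Col1a2 lay above 98.4% of its 61 neighbours in level, Col5a1 above 96.8% of 562, Col3a1 above 95.7% of 46, Col5a3 above 94.4% of 1226 and Col5a2 above 91.6% of 167. Probe sets of one gene differed widely in range. For Col1a2 the range was 2.90e-05 at the brightest probe set, 0.00160 at the middle one and 0.00775 at the dimmest, which is 268 times the first. For Col3a1 it was 9.20e-06 at the main probe set and 7.82e-04 at the dimmer one. The size of a difference on the deposited scale can therefore not be set against that of another probe set, even for the same gene.

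Both chains of type I collagen had the same 3 low arrays. Col1a1 had 11.1815, 11.1825, 11.1855 and 11.1849 in collagen 1 to 4, against 11.1880, 11.1888, 11.1871 and 11.1821 in control 1 to 4. The 4 collagen arrays lay below control 1, 2 and 3, but control 4 fell inside the collagen range, so the diets overlapped. The mean was 11.1836 ± 0.00193 with collagen and 11.1865 ± 0.00299 in controls (SD, n = 4 each). The difference was -0.00288 ± 0.00171 (SE), or -1.14 SD, and missed the test (limma p = 0.140, adjusted p = 0.999 over all genes; exact permutation p = 0.171). Its 95% interval ran from -2.77 to 0.49 SD.

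The second, dimmer Col1a1 probe set had 10.8052, 10.8058, 10.8143 and 10.8190 with collagen, against 10.8270, 10.8259, 10.8207 and 10.8083 in controls. Control 4 again lay within the collagen range, and the difference of -1.22 SD was the largest of the 14 (limma p = 0.119, exact permutation p = 0.114). Col1a2 had 14.128763, 14.128765, 14.128782 and 14.128789 in collagen 1 to 4, against 14.128792, 14.128790, 14.128789 and 14.128768 in control 1 to 4. Collagen 1, collagen 2 and control 4 formed its low arrays. The difference was -9.83e-06 ± 8.11e-06, or -0.82 SD (adjusted p = 0.999 by limma). The other probe sets of Col1a2 differed by -0.88 and -0.92 SD.

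Type III collagen followed the same pattern. Col3a1 had 14.214699, 14.214696, 14.214702 and 14.214703 with collagen, against 14.214704, 14.214705, 14.214703 and 14.214698 in controls. Its lowest value was in collagen 2, followed by control 4 and collagen 1. The difference was -2.56e-06 ± 2.24e-06, or -0.78 SD (adjusted p = 0.999 by limma, exact permutation p = 0.257). At its dimmer probe set, where the spread was wider, the values were 12.1522, 12.1521, 12.1527 and 12.1527 with collagen, against 12.1528, 12.1529, 12.1527 and 12.1524 in controls, a difference of -1.08 SD.

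Among the type V chains, Col5a1, the α1 chain, had 11.1033, 11.1030, 11.1044 and 11.1051 with collagen, against 11.1052, 11.1056, 11.1048 and 11.1040 in controls. Collagen 4 lay above control 3 and control 4, so 2 arrays of each diet fell in the range of the other. The difference was -9.59e-04 ± 5.59e-04, or -1.17 SD, the largest among the 6 main probe sets in SD units (limma p = 0.133, adjusted p = 0.999; exact permutation p = 0.171). Col5a2, the α2 chain, had 12.70894, 12.70891, 12.70912 and 12.70917 with collagen, against 12.70918, 12.70910, 12.70910 and 12.70903 in controls, so collagen 3 and collagen 4 lay above 3 of the control arrays. Its difference was -0.64 SD. Col5a3, the α3 chain, had 9.67506, 9.67513, 9.67559 and 9.67612 with collagen, against 9.67533, 9.67608, 9.67549 and 9.67549 in controls. Its highest and its lowest values were both in collagen-fed mice, and the difference was -0.30 SD. The second Col5a3 probe set, at 7.51, was the 1 member probe set dimmer than the median probe set (8.193), and also the 1 with a higher mean in the collagen group, by 3.63e-07 ± 9.20e-07 or 0.27 SD.

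**Figure D1:**
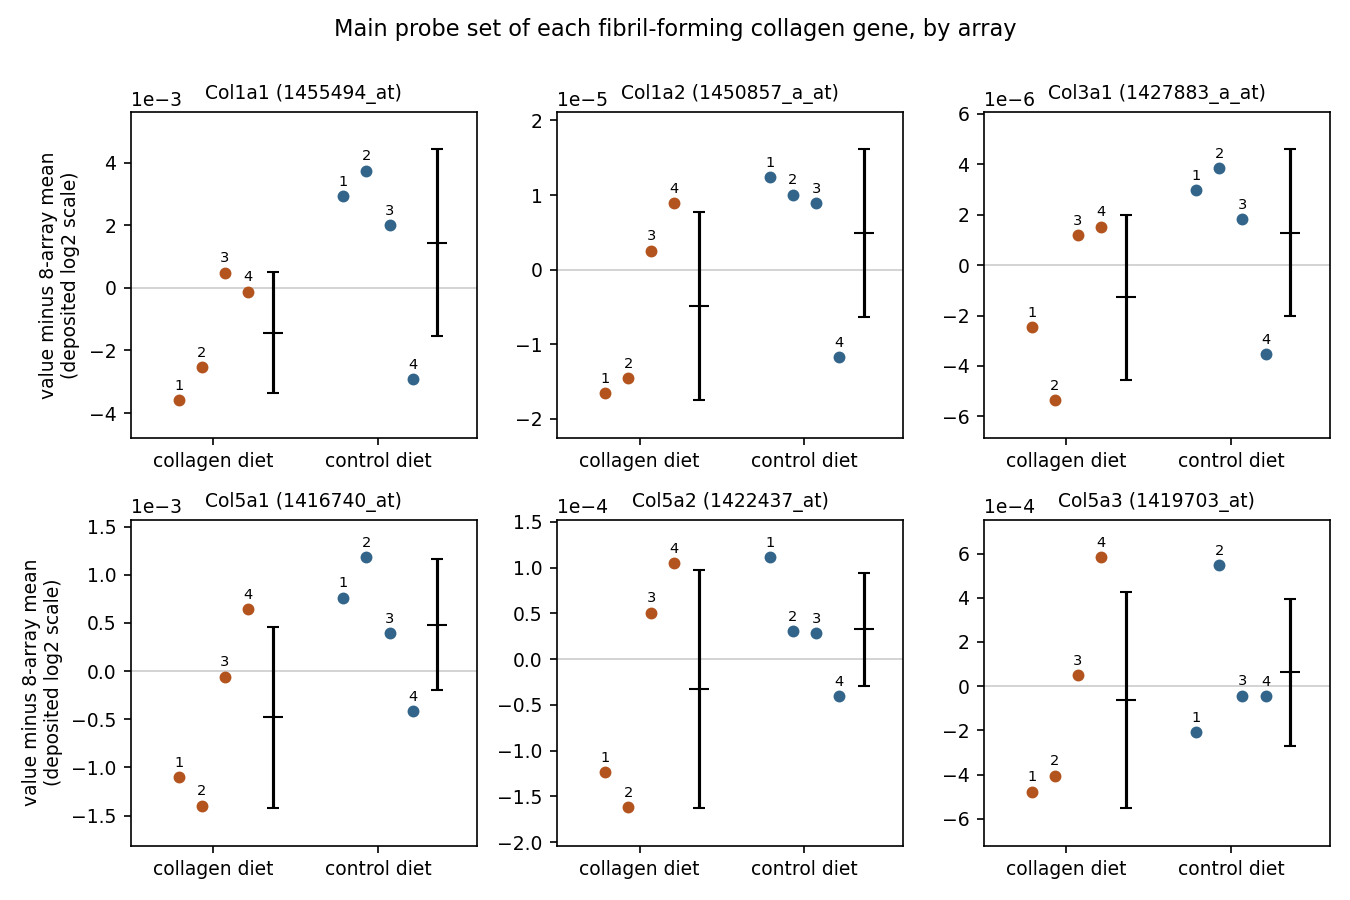
Each panel plots the main probe set of a gene as its value minus the mean of the 8 arrays, on the deposited log2 scale (note the power of 10 above each axis), for collagen 1 to 4 (left) and control 1 to 4 (right). Numbers mark the arrays and bars give the mean ± SD of each diet. Collagen 1, collagen 2 and control 4 lie low in Col1a1, Col1a2 and Col3a1, and the diets overlap in each panel.

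The comparison of diets asks whether 1 week of collagen hydrolysate came with a change in these genes. All 6 genes had a lower mean in the collagen group on the values as deposited, as did 47.1% of the 18193 genes, but Col1a2 and Col3a1 were higher after median centring of each array, unless collagen 1 was left out. As deposited, 13 of the 14 probe sets were lower, against 46.7% of all probe sets. None passed the test, with adjusted p = 0.999 for each gene by limma, and 0% of all genes passed it. No member gene had an unadjusted p under 0.05 (3.49% of all genes did, and 1.23% in the lower direction), the 6 running from 0.133 to 0.678. The diets overlapped in each member, while they did not in 2.02% of all genes (0.671% in the lower direction) and 2.01% of all probe sets. The exact permutation p ran from 0.171 to 0.657 over the 6 genes, where 0.0286 is the smallest that 4 arrays against 4 can give. The median difference of the 6 genes was -0.80 SD, against 0.05 SD over all genes. After median centring it was -0.14 SD, against 0.49 SD over all genes, with 4 of the 6 genes and 5.38% of all genes lower. Centring adds the same amount to each difference. It set the sign of Col1a2 and Col3a1, whose differences as deposited were smaller than that amount. That shift rests on collagen 1: centred without it, all 6 genes and 94.6% of all genes were lower and the median of the 6 was -0.80 SD (chosen after seeing the data). After quantile normalization Col1a2, Col3a1 and Col5a2 had no spread, and the other 3 genes were lower. Of the 6 genes 2 lay below -1 SD, as did 7.69% of all genes. Members are correlated between arrays, so these counts are not 6 separate observations.

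**Figure D2:**
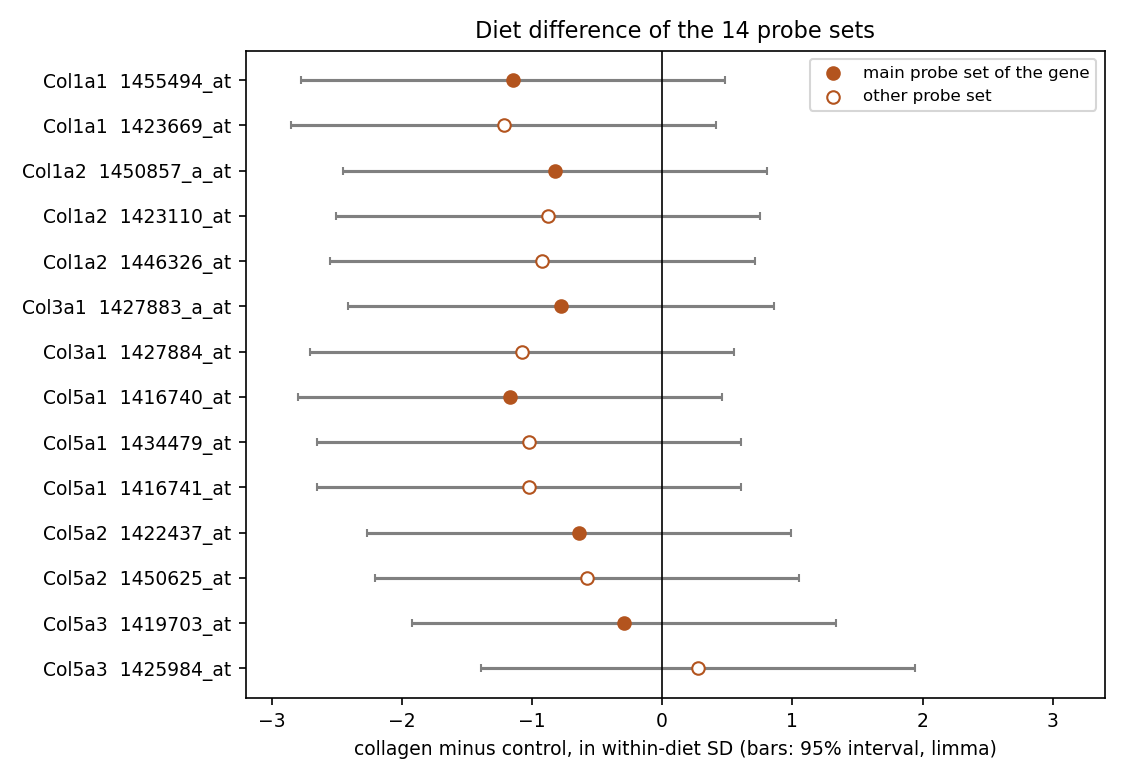
Difference of each of the 14 probe sets, collagen minus control, in units of its within-diet SD, with the 95% interval from limma (n = 4 arrays per diet). Filled points are main probe sets and open points the others. The points run from -1.22 SD (the second Col1a1 probe set) to 0.27 SD (the second Col5a3 probe set), and each interval spans 0. The values are as deposited, and the main probe sets of Col1a2 and Col3a1 turn higher with collagen after median centring, though not when collagen 1 is left out.

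The overlap of the type I and type III collagens rested on control 4, and that of the type V chains did not. Control 4 was among the lowest 4 arrays in all 14 probe sets, like collagen 2, and collagen 1 was so in 13. Without control 4, an array singled out after its values were seen, the diets no longer overlapped in 7 probe sets, each lower with collagen, against 1.75% of all probe sets and, for 3 of the 6 genes, 1.81% of all genes. These were both probe sets of Col1a1, all 3 of Col1a2 and both of Col3a1. All 7 probe sets of the type V chains still overlapped. At the main Col5a1 probe set this came from collagen 4 (11.1051), which lay above control 3 (11.1048). In size Col5a1 was not set apart from types I and III. It differed by -1.63 SD, against -1.57 SD for Col1a2 and -1.59 SD for Col3a1. Their unadjusted p was 0.0707, 0.0796 and 0.0777 by limma. Col5a2 differed by -0.85 SD and Col5a3 by -0.35 SD. The median difference of the 6 genes was then -1.58 SD, and Col1a1 had an unadjusted p of 0.0115 by limma, but each of the 6 kept an adjusted p of 1.00. Left out in turn, none of the other 7 arrays removed the overlap of any member. The median difference was -0.48 SD without collagen 2 and -1.26 SD without collagen 4.

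On the values as deposited, 5 of the 6 genes varied together from array to array, and Col5a3 passed with 1 of them. Over the 8 arrays the 15 pairs of main probe sets had a median Pearson r of 0.89. Among Col1a1, Col1a2, Col3a1, Col5a1 and Col5a2 the 10 pairs had r between 0.75 (Col1a1 with Col5a2) and 0.94, and each passed (exact permutation over 8 arrays, adjusted over the 15 pairs, p from 0.00558 to 0.0497). The highest were Col1a2 with Col5a1 (r = 0.942, rho = 0.929) and Col1a2 with Col3a1 (r = 0.942, rho = 0.905). By Spearman's rho 7 of the 15 pairs passed. On deviations from the diet means the 10 pairs had r between 0.72 and 0.94. Without the 2 arrays farthest from the median of the first gene, r ran from 0.58 (Col5a1 with Col5a2) to 0.97 (Col3a1 with Col5a1).

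Over all 8 arrays the pairs with Col5a3 had r from 0.54 (Col1a1) to 0.77 (Col5a1), and 1 of its 5 pairs passed (Col5a1, exact permutation p = 0.0258, adjusted p = 0.0388 over the 15 pairs). The 2 arrays farthest from the median of the first gene differed by pair. Without collagen 1 and control 2 the r of Col5a3 was 0.10 with Col1a1. Without collagen 1 and collagen 2 it was 0.26 with Col1a2, 0.17 with Col5a2 and 0.51 with Col5a1. These relations rest on the arrays left out. With Col3a1 it was 0.63 without collagen 2 and control 4, against 0.64 over all 8. That pair kept collagen 1, the lowest array of Col5a3, so its r cannot be set against the others. Control 1 bears on this as well: without it the Col5a3 pairs had r from 0.72 to 0.92, against 0.69 to 0.94 in the other 10 pairs, and 3 of the 5 passed. The difference between Col5a3 and the other chains in this respect was not tested.

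Probe sets of one gene followed each other closely except for Col5a3. Their r over the 8 arrays was 0.965 for the pair of Col1a1, 0.924 to 0.984 for the 3 pairs of Col1a2, 0.957 for Col3a1, 0.945 to 0.963 for Col5a1 and 0.944 for Col5a2. These values are descriptive, and probe sets of one gene share their transcript and the array. Close agreement was not particular to probe sets of one gene. Between different genes, Col5a3 left out, r ran from 0.748 (Col1a2 with Col5a2) to 0.984 (Col1a1 with Col5a1). The pair of Col5a3 had r = 0.06. The range of its dim probe set was 2.99e-06 over 8 arrays.

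**Figure D3:**
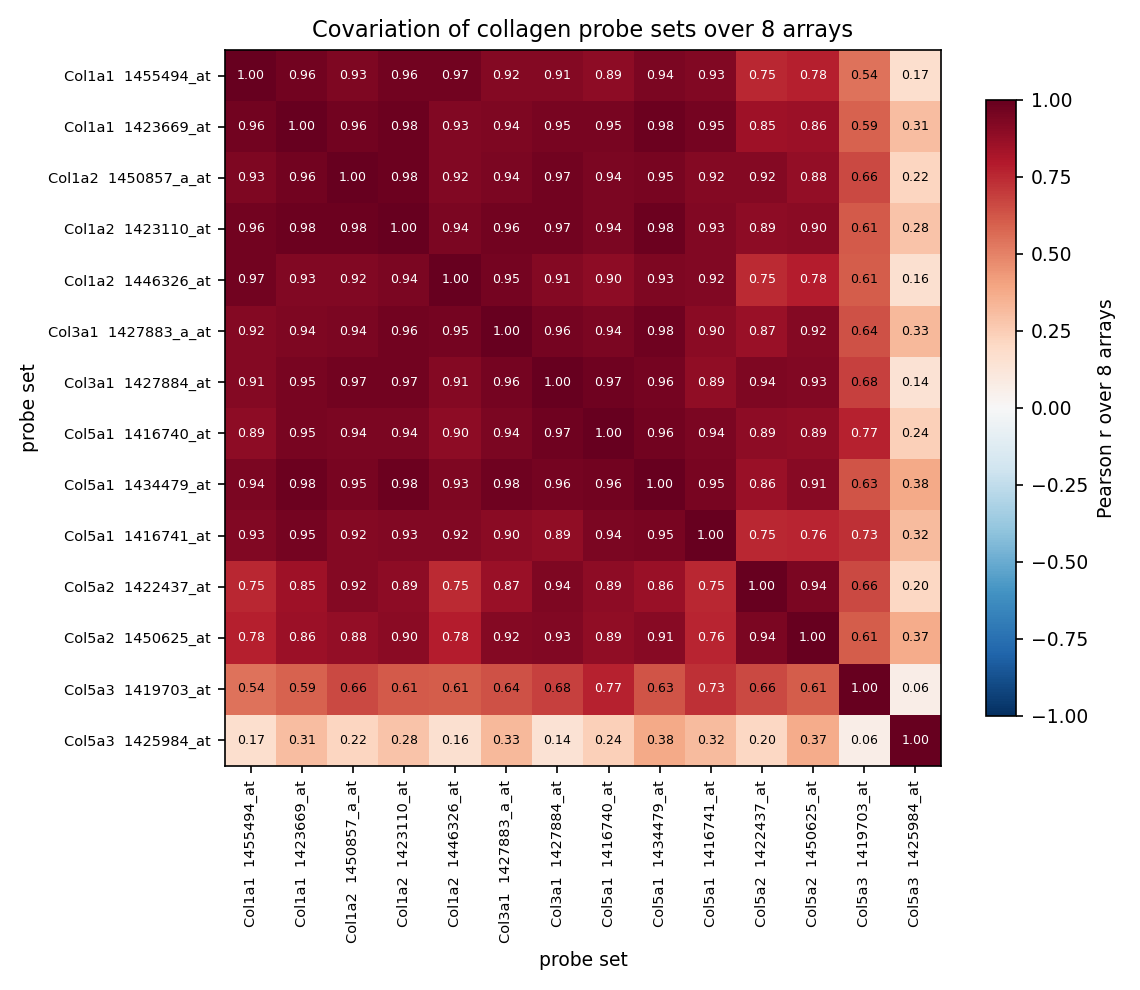
Pearson r over the 8 arrays between each pair of the 14 probe sets, ordered by gene (colour scale from -1 to 1, value in each cell). The block of Col1a1, Col1a2, Col3a1 and Col5a1 is the most strongly correlated, the Col5a2 rows are paler, and the Col5a3 rows are the palest, with r for the dim probe set between 0.06 and 0.38.

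The covariation above is of values as the authors scaled them. The array medians differed by 3.31e-04, with the lowest in collagen 1 and the highest in collagen 3, which is more than the whole range of the main probe sets of Col1a2, Col3a1 and Col5a2. Without collagen 1 they differed by 1.04e-04, more than the range of Col1a2 and Col3a1 but not of Col5a2. After median centring of each array 2 of the 15 pairs passed, Col1a1 with Col5a1 (r = 0.87) and Col1a2 with Col3a1. The second is set by the centring and no result about these genes, since Col1a2 and Col3a1 then had r = -0.9958 and r = -0.9996 to the array medians that were subtracted. With the mean of all probe sets of a gene, which gives weight to those with a wider spread, and the same centring, 6 pairs passed (chosen after seeing the data). Among them were Col1a1 with Col1a2 (r = 0.95), Col1a1 with Col5a1 (r = 0.93) and Col3a1 with Col5a2 (r = 0.92). Quantile normalization gave Col1a2, Col3a1 and Col5a2 a single value in all arrays, and of the 3 pairs left Col1a1 with Col5a1 passed (r = 0.85, exact permutation, adjusted p = 0.0295).

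Col3a1 and Col5a2 are next to each other on mouse chromosome 1 in assembly GRCm38.p6, with no protein-coding gene between them, while the other 4 genes lie on chromosomes 11, 6, 2 and 9. The neighbours had r = 0.87, within the range of the pairs on separate chromosomes. RefSeq promoter windows (build GRCm38.p6, 250 bases before to 50 after the annotated start) were at hand for Col1a2, Col3a1, Col5a1 and Col5a3. Those of Col1a2 and Col3a1, the brightest pair and among the most closely correlated, and of Col5a3, the gene with the lowest r over all 8 arrays (but not without control 1), are shown to compare their make-up. Each line gives the 250 bases before the start on the gene's strand, 5′ to 3′, with matches on either strand to CCAAT (the CCAAT box), to TATAAA (known as the TATA box) and to GGGCGG (known as the GC box) in capitals. They lie at chr6:4505368-4505617 (+ strand), chr1:45311288-45311537 (+ strand) and chr9:20815068-20815317 (- strand).
Col1a2: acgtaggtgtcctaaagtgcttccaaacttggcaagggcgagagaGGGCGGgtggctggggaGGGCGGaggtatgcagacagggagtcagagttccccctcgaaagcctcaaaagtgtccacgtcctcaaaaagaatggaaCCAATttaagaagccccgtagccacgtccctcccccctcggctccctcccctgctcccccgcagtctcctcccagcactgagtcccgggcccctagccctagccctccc
Col3a1: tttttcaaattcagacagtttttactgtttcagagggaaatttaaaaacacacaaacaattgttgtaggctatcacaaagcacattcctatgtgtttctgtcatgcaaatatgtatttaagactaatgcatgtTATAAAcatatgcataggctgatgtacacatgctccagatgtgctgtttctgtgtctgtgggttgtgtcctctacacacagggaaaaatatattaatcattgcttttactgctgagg
Col5a3: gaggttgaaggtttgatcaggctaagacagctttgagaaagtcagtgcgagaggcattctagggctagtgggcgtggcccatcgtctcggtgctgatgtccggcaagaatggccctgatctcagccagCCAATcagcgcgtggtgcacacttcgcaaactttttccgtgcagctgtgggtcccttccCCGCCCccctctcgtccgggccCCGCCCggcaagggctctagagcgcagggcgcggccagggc
The correlated pair differed in composition. The 300-base window of Col1a2 held 61% G and C and that of Col3a1 37.7%, against a median of 52.7% over 32851 windows, while those of Col5a1 and Col5a3 held 75% and 63.3%. On either strand, the CCAAT box was found in the windows of Col1a2 and Col5a3 and in 37.4% of all windows. The GC box was found in those of Col1a2, Col5a1 and Col5a3 and in 35.7% of all. The letters TATAAA were found in that of Col3a1, at -117 from the annotated start, and in 13.6% of all. In Col1a2 a further CCAAT box match lies after the start, and in Col5a3 a GC box match crosses it, so neither is in capitals. None of these 3 motifs overlapped another in the printed bases. Matches are a description of the letters only.

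The genes outside the group whose values were most like a collagen's were taken for each main probe set, by Pearson r over 8 arrays among 11589 genes with a mean at or above 8.193. Col1a1 was followed most closely by Nid1, a basement membrane protein (r = 0.971), Adamts12, a metalloprotease (0.967), and Col4a4, a basement membrane collagen (0.964). For Col1a2 these were Mkrn1, a ubiquitin ligase (0.991), Col16a1, a fibril-associated collagen (0.988), and Mmp14, a membrane-bound collagenase (0.974). Col3a1 had Tenm4, a transmembrane teneurin (0.978), Wdr6 (0.978) and Pcolce, which speeds the trimming of procollagen (0.970). Col5a1 had Col15a1, a basement membrane zone collagen (0.981), Gpx7, a peroxidase of the endoplasmic reticulum (0.981), and Sparc, a collagen-binding matrix protein (0.977). Col5a2 had Emid1 (0.974), Cgnl1, a junction protein (0.961), and Prickle1, a planar polarity protein (0.950). Col5a3 had Dbn1, an actin-binding protein (0.982), Oas1a, an interferon-induced gene (0.971), and Pwwp2b (0.971).

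The same was done with the mean z value of the 6 genes, in which each gene is centred on its mean and divided by its SD over the 8 arrays. The closest genes were Miat, a long non-coding RNA (0.985), Mkrn1 (0.977), Kdelr3, a retrieval receptor of the endoplasmic reticulum (0.973), Sparc (0.972) and Lox, the founding collagen crosslinking oxidase (0.972). The named genes are the highest of 11589 over only 8 arrays, so their high r comes in part from that choice. Other members with r over 0.9 to a given collagen numbered from 0 (Col5a3) to 4 (Col1a2). Of the 18185 other genes with a spread, between 0.275% (Col1a1) and 0.808% (Col5a3) had r over 0.9 to a given collagen. Over all these genes the median r to the mean z value was 0.00.

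Genes that make, modify or bind these collagens were taken from 9 lists. None of the 98 genes measured in them passed the adjusted test (limma). The counts below are of values as deposited, each with its count after median centring, where 5.38% of all genes were lower (94.6% without collagen 1). Centring adds the same amount to the difference of each gene, and the median difference of all genes was then 5.52e-05. It thus sets the sign of any gene whose difference as deposited was smaller than that amount. Counts after centring are therefore no test of direction. The values named are not changes that passed a test. Of the crosslinking oxidases 4 of 4 were lower with collagen (2 after centring), with a median difference of -0.66 SD, and their median r to the mean z value of the 6 genes was 0.80. Loxl1 had a level of 11.42799 with collagen and 11.42812 in controls (-1.58 SD, r = 0.85), and Lox one of 10.4996 with collagen and 10.5006 in controls (-0.94 SD). Hydroxylases and chaperones, which act in the endoplasmic reticulum, were lower in 12 of 17 (6 after centring) with a median of -0.49 SD and a median r of 0.56. Of these P4ha2, a prolyl hydroxylase subunit, differed by -1.52 SD (r = 0.83) and P4ha3, a dim paralogue at 7.51, by 1.30 SD (r = -0.25).

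Fibril-associated partners were lower in 11 of 14 (6 after centring; median -0.33 SD, median r = 0.60). Col6a1, a chain of the beaded-filament collagen VI, differed by -1.02 SD and had r = 0.94, while Fmod, a proteoglycan that binds type I fibrils, differed by 1.21 SD (lower after quantile normalization) and had r = -0.69. Large-cargo secretion genes were lower in 10 of 12, but in 1 of 12 after centring (median -0.83 SD as deposited, median r = 0.34), with Creb3l1, a transcription factor that acts on collagen secretion, at -1.72 SD (unadjusted p = 0.0418 by limma, r = 0.83) and Sec23a, a vesicle coat subunit, at -1.55 SD (r = 0.36, higher after centring). Fibrillar collagen breakdown genes were lower in 8 of 10 and in 6 after centring (median -0.47 SD, median r = 0.63), with Mmp13, the main rodent collagenase, at -1.33 SD and Mmp2, a gelatinase, at -1.25 SD.

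Procollagen processing genes were lower in 4 of 8 (1 after centring; median -0.08 SD). Pcolce differed by -1.33 SD and Bmp1, the protease that removes the C-propeptide, by -0.92 SD (higher after centring and after quantile normalization), with r = 0.94 for Pcolce and 0.90 for Bmp1, while the median r of the list was 0.19. The other fibril-forming collagens were lower in 3 of 5 (1 after centring), with Col2a1, the cartilage collagen, at -2.11 SD (level 7.71; unadjusted p = 0.0360 by limma) and Col27a1 at 0.99 SD. Col2a1 was higher after either scaling, and Col27a1 lower after quantile normalization. Collagen gene regulators were lower in 13 of 20 (median -0.50 SD as deposited, median r = 0.24). After centring 1 was lower, and after quantile normalization 2 were lower, 12 higher and 6 equal. Tgfb3, a growth factor ligand, differed by -2.02 SD (unadjusted p = 0.0227 by limma). Nfya, a subunit of the CCAAT-binding factor, differed by -1.72 SD (unadjusted p = 0.0416 by limma). Both were higher after either scaling. Collagen receptors lay the other way: 7 of 8 were higher with collagen (8 after centring, 4 after quantile normalization; median 0.42 SD), with the integrin subunits Itga1 at 1.22 SD (lower after quantile normalization) and Itgb1 at 0.90 SD, and their median r was 0.26.

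Marker lists of skin cell types varied between the same arrays. The mean z value of the 6 collagen genes was -1.17, -1.31, 0.22 and 0.73 in collagen 1 to 4, against 0.73, 1.05, 0.43 and -0.67 in control 1 to 4. The 14 fibroblast markers, 3 of which are also fibril-associated partners, had mean z values from -1.38 (collagen 2) to 0.91 (collagen 4) in the collagen group and from -0.10 to 0.54 in controls, and 11 of 14 were lower (4 after centring). In collagen 1 and control 4, low arrays for the collagens, they stood at -0.35 and 0.25. The 12 epidermal keratinocyte markers, of which 10 were higher (12 after centring), had their highest value in collagen 2 (1.59), the lowest array for the collagens, and ran from -0.90 in the collagen group and from -0.81 to 0.36 in controls. Their part in the collagen values was not tested.

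The 10 endothelial markers were all lower as deposited, 2 of 10 after centring and 5 of 10 after quantile normalization (from -1.30 to 0.50 with collagen, from -0.31 to 0.58 in controls), as were 8 of 10 macrophage and dendritic cell markers, 6 after centring (from -1.28 to 0.99 with collagen, from -0.12 to 0.80 in controls). Skeletal muscle markers were lower in 14 of 15 (13 after centring), with their lowest value in collagen 1 (-1.46) and their highest in control 4 (1.16), where the collagens were low. Hair follicle keratinocyte markers were lower in 9 of 10, and 6 after centring (from -1.51 to 1.02 with collagen, from -0.83 to 1.05 in controls). Adipocyte markers were lower in 4 of 8, and 1 after centring (from -0.98 to 1.14 with collagen, from -0.75 to 0.58 in controls), as were smooth muscle and pericyte markers (from -0.54 to 0.57 with collagen, from -0.69 to 0.76 in controls). The 3′ minus 5′ difference of the Gapdh control probe sets, a measure that RNA quality can move, was 0.2900 to 0.2906 with collagen and 0.2898 to 0.2904 in controls. In this measure control 2, control 3 and control 4 lay below each collagen array, and control 1 lay below collagen 1 only. It was thus nearly split by diet, and its part in the collagen values was not tested. With the Gapdh difference as a covariate the median difference of the 6 genes was -0.82 SD and Col5a3 turned to 3.09e-05 higher with collagen.

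**Figure D4:**
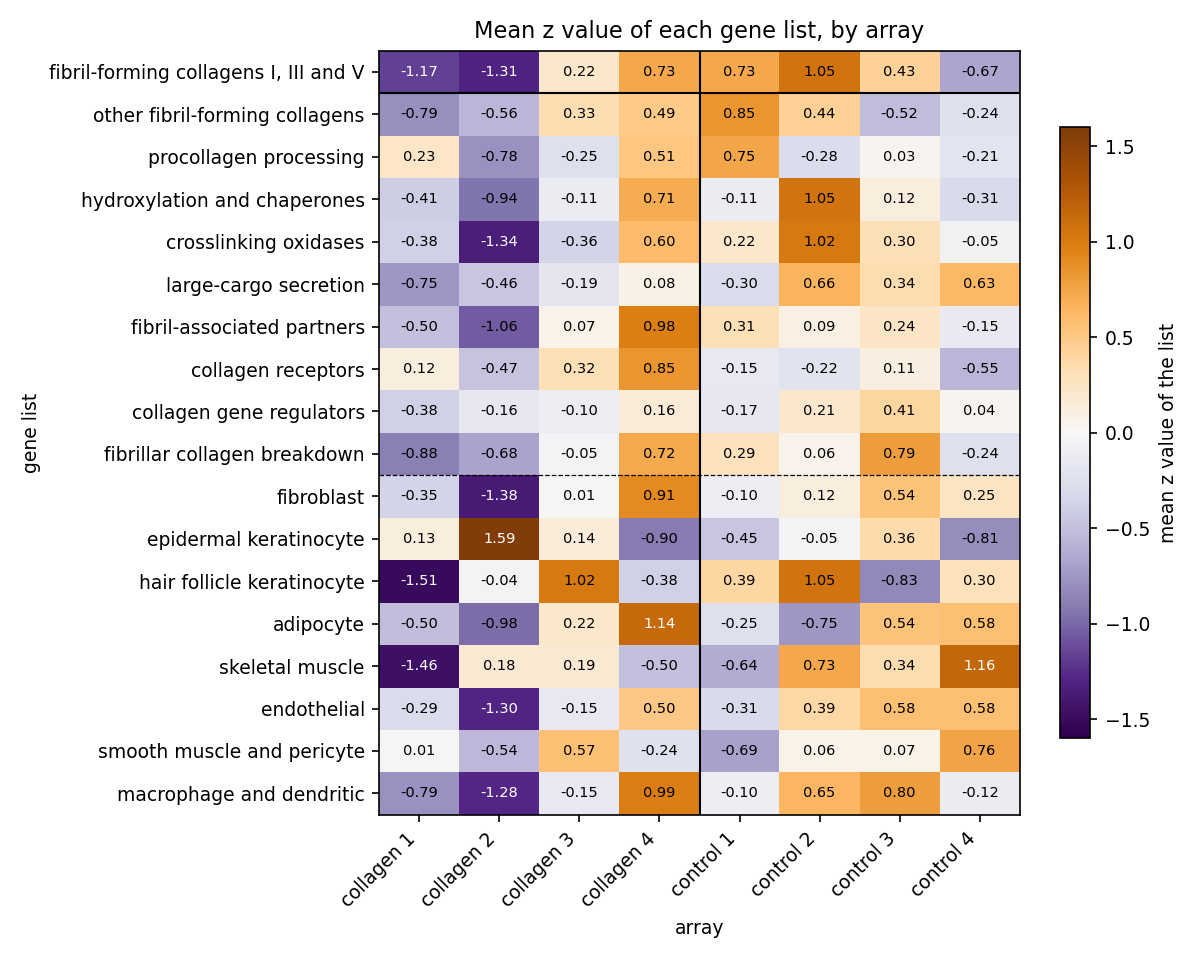
Mean z value of each gene list in each array, collagen 1 to 4 left of the line and control 1 to 4 right of it. Values are as deposited. The top row is the 6 collagen genes, the next 9 rows are the genes that make, modify or bind them, and the rows under the dashed line are cell type markers. Collagen 2 is the lowest array of the crosslinking oxidases and fibroblast markers and the highest of the epidermal keratinocyte markers.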

How the data were processed

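Biotin-labelled RNA from dorsal skin was hybridised to 1-colour arrays, per the labels' protocols. The authors deposited log2 values, 1 per probe set and array, and the submitters' processing notes name R 2.7.2. No source used here names the method of summary, the normalization or the genome build, and that the scale is log2 was inferred from the range of values.

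Values were used as deposited, without 64 control probe sets. The platform annotation gave 1 symbol for 34945 probe sets, several for 932 and none for 9160. Diets were compared with limma 3.58.1 in R 4.3.3 (lmFit, then eBayes, with diet as the only term and two-sided p) over all probe sets and over all genes, with Benjamini-Hochberg adjustment. Exact permutation tests used all 70 assignments of the arrays, or all pairings for a correlation, two-sided. P-values measure the spread between these arrays.

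Members and lists were chosen with earlier results of these data known. Named genes were the members, the 3 genes most like each, the 5 most like their mean z value, and the 2 with the smallest p in each list. Of the marker lists only summaries are given. The fits were run on simulated data with independent noise and shifts far larger than the differences of the members. That run does not bear on differences as small as these. Alternatives were other scalings, leaving out dim probe sets, other variance models, weighting of arrays, a block for replicate number, a Gapdh covariate, an unmoderated test and each array left out.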

Additional observations from a re-analysis of the deposited data

Results flagged for a closer look

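Within the control group, the main Col1a2 probe set had 14.128768 in control 4, far from the nearest other control array at 14.128789. This gap was 0.856 of the range of the 4 control arrays; the gap is past Dixon's limit for groups of this size. It was the 1 case among 28 groups of 4 arrays (14 probe sets in 2 diets) checked, and chance gives about 1 in 20.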

How the results depend on the processing

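No array or scaling made a member gene pass the adjusted test: over the alternatives run, 94 of 99 gene differences and 209 of 219 probe set differences kept their sign and stayed short of the threshold. Leaving out dim probe sets, the other variance models, the unmoderated test and the replicate block do not change a difference. Signs under these settings were fixed in advance, so the counts overstate how stable the direction was. After median centring Col1a2 and Col3a1 turned to 4.53e-05 and 5.26e-05 higher with collagen, where the median difference of all probe sets became 5.52e-05 and 5.38% of all genes were lower with collagen. Col5a3 turned to 3.09e-05 with the Gapdh covariate, 1.46e-05 without collagen 1 and 3.80e-05 without control 2, and ran from -3.39e-04 to 3.80e-05 with an array left out. The dim Col5a3 probe set turned to -1.225e-07 after quantile normalization, -3.80e-08 with array weights, -4.81e-07 with the Gapdh covariate, -4.91e-08 without collagen 1 and -9.83e-08 without control 4 (from -9.83e-08 to 8.97e-07 with an array left out). The cause was not tested. The median difference of the 6 genes was -0.80 SD as deposited and -0.14 SD after median centring, with 4 genes lower, but -0.80 SD with 6 lower when centred without collagen 1, where the median difference of all genes was -2.06e-05. The number of genes lower with collagen was 5 to 6 and their median difference -1.58 to -0.48 SD when each array was left out in turn. Quantile normalization gave 2 called probe sets of all 45037, against 0, and these 2 had 1 value in all 4 arrays of each diet after it. It left 3 member genes and 4 member probe sets with no spread and so with no value, and 3 genes lower against 6. The gene lists were compared after seeing the data. Skeletal muscle markers were lower in 14 of 15 as deposited, 13 after median centring and 6 after quantile normalization (1 higher, 8 equal). Breakdown genes were lower in 8, 6 and 6 of 10 (1 higher and 3 equal after quantile normalization). Regulators were lower in 13, 1 and 2 of 20 (12 higher and 6 equal after quantile normalization). Of the collagen pairs 11 passed as deposited, 8 to 12 with an array left out, 2 after median centring, 1 after quantile normalization (3 pairs left by construction) and 6 with averaged probe sets and median centring. Without control 4, 7 member probe sets lost their overlap, against 0 with it.

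Whether arrays of the same replicate number pair was not tested. Their deviations from the diet means correlated at 0.36, 0.05, 0.22 and 0.01, and 2 of 4 collagen arrays correlated best with the control array of their own number. With a replicate block 0 genes passed. The block leaves each difference as it was, so the 6 genes stayed lower by construction, and their median difference was -0.60 SD. With this block 1110 genes had an unadjusted limma p under 0.05, against 635 without it. The lowest adjusted p over all genes was 0.244 by limma, against 0.999. Signal over background is unknown, as no detection calls were used.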
